A study of Arabidopsis thaliana with 12 samples.

Results

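A set of 129 cDNA clones, out of 11926 on the array, was chosen for a higher signal in Arabidopsis seedlings that received lanthanum before the calmodulin antagonist W7 than in seedlings that received W7 alone, with little mean change between W7 and its solvent control. Each clone is an EST (expressed sequence tag, a partial cDNA copy of a transcript) printed as a spot on a glass slide. The rule took the deposited ratios on a log2 scale. It kept the 9765 clones with an intensity of at least 500 scanner units in either dye on all 3 arrays that set W7 against La plus W7, then those with a mean log2 ratio of W7 over La plus W7 of at most -0.7 and each of the 3 values below -0.3 (294 clones), then those with a mean log2 ratio of W7 over DMSO between -0.5 and 0.5 (129 clones). A negative ratio of W7 over La plus W7 means a higher signal in La plus W7. All 129 clones were printed once.

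The study measured total RNA of whole seedlings after a treatment of 1 h on 12 arrays, each with one RNA in Cy5 and the other in Cy3. The groups were W7 after pretreatment with La3+ (called La plus W7), W7 alone, trifluoperazine (TFP, another calmodulin antagonist) alone, DMSO after pretreatment with La3+ (La plus DMSO), and DMSO alone. They were hybridised in 4 experiments of 3 arrays, which the submitters describe as independent biological repeats: W7 over La plus W7, W7 over DMSO, TFP over DMSO, and La plus W7 over La plus DMSO. Genotype, seedling age and doses are not given in the sources used here, and whole seedlings mix all cell types, so that fewer cells of a type and less RNA per cell cannot be told apart.

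Calcium ions carry signals in plant cells, and calmodulin is a small protein that binds calcium and then changes the activity of its target proteins. W7 and TFP bind calmodulin and keep it from its targets, and lanthanum ions block calcium channels in the plasma membrane. The labels mark W7 alone as W7 with calcium and La plus W7 as W7 without calcium, so the comparison of the pair asked which transcripts depend on calcium entry while calmodulin is inhibited. The files name each spot by its EST, and 0 of the 11926 names matched the supplied gene table, so the 129 clones are described by EST name, with no gene role.

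Several facts of the arrays bear on these clones. The labels put La plus W7 in Cy5 on all 3 arrays of W7 over La plus W7, so lanthanum and dye cannot be told apart on them, whereas the submitters' design mentions 1 swapped array per experiment. The scanner files of W7 over DMSO arrays 1 and 2 were identical and had the dyes of array 1. Array 2, with W7 in Cy5, was therefore available only as the authors' ratio, and the 11 other arrays had scanner values of their own. The number of arrays limits the precision.

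The values that chose the clones are a description and carry no test. The 129 clones had a median of 1.87 times more signal in La plus W7 than in W7 (range 1.63 to 11.8), and their mean log2 ratio of W7 over La plus W7 had a median of -0.90 (quartiles -1.09 and -0.80). It was -1 or lower in 45 of them and -2 or lower in 5. The 3 arrays did not contribute alike: the clones' median was -0.84, -1.29 and -0.67 on arrays 1, 2 and 3, and array 2 held the lowest of the 3 values for 85 of the 129. Array 2 was also wider over all bright clones, with quartiles of -0.454 and 0.465. Those quartiles were -0.252 and 0.287 on array 1 and -0.252 and 0.239 on array 3. The SD of the 129 clones over the 3 arrays had a median of 0.45. Just inside the limit of -0.7 lay T44259 at -0.71, T42723 at -0.71 and N65132 at -0.70, and just outside it R64991 at -0.70, R90336 at -0.70 and T21199 at -0.69.

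**Figure D1:**
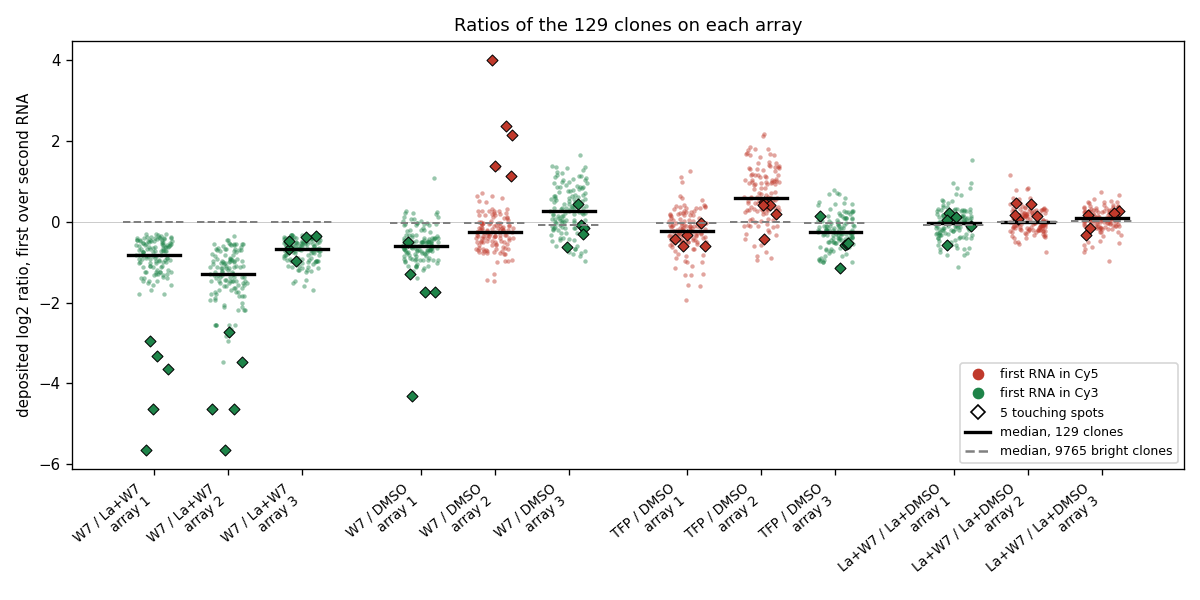
Each point is the deposited log2 ratio of 1 of the 129 clones on 1 of the 12 arrays, coloured by the dye of the first-named RNA; black bars are the medians of the 129 clones and dashed bars those of the 9765 bright clones. The clones lie below 0 on the 3 W7 over La plus W7 arrays by the rule, while their medians on the W7 over DMSO arrays run from -0.60 to 0.26 and on the TFP over DMSO arrays from -0.27 to 0.60.

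The 5 clones with the largest values were neighbouring spots on the slide. R90171 (mean log2 ratio -3.56), N37600 (-3.42), N37717 (-2.88), N37719 (-2.86) and H36315 (-2.01) lay in rows 7 to 9 and columns 1 to 4 of the print block in array row 5 and array column 3, each touching another of the 5. Per array, R90171 had log2 ratios of W7 over La plus W7 of -5.64, -4.64 and -0.38, and N37600 of -3.64, -5.64 and -0.97. N37719 had -4.64, -3.47 and -0.47. In each of the 5 clones arrays 1 and 2 held the large values, and array 3 lay between -0.97 and -0.36.

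The raw intensities of R90171 show which channels made these ratios. It had 48547 and 31117 scanner units in the Cy5 channel with La plus W7 on arrays 1 and 2, against 2001 and 898 in the Cy3 channel with W7. The 4 other channels that held La plus W7 gave 444 to 771 units, which overlaps the 423 to 666 of the 3 La plus DMSO channels. Another high value of R90171 stood in a channel without lanthanum or W7, the Cy5 channel with DMSO on W7 over DMSO array 1, at 16962 units against 292 to 798 in the 4 other DMSO channels. Over all 19 channels other than these 3, R90171 ranged from 292 to 2001.

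The same 3 Cy5 channels were the high ones for H36315, at 47397 and 42308 units with La plus W7 and 27333 with DMSO, against 1081 to 9612 in the 19 others. N37600 had 10176 and 27952 with La plus W7 and 2264 with DMSO, against 77 to 1196 in the others. For N37717 (17854 and 27655 with La plus W7) and N37719 (46495 and 17103) the DMSO channel, at 2750 and 3901 units, lay inside the range of the 19 others, whose highest values were 2886 and 4147. In all 5 clones these 2 La plus W7 channels were the highest of the 22, and the 4 remaining La plus W7 channels of each lay below its highest channel without lanthanum.

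**Figure D2:**
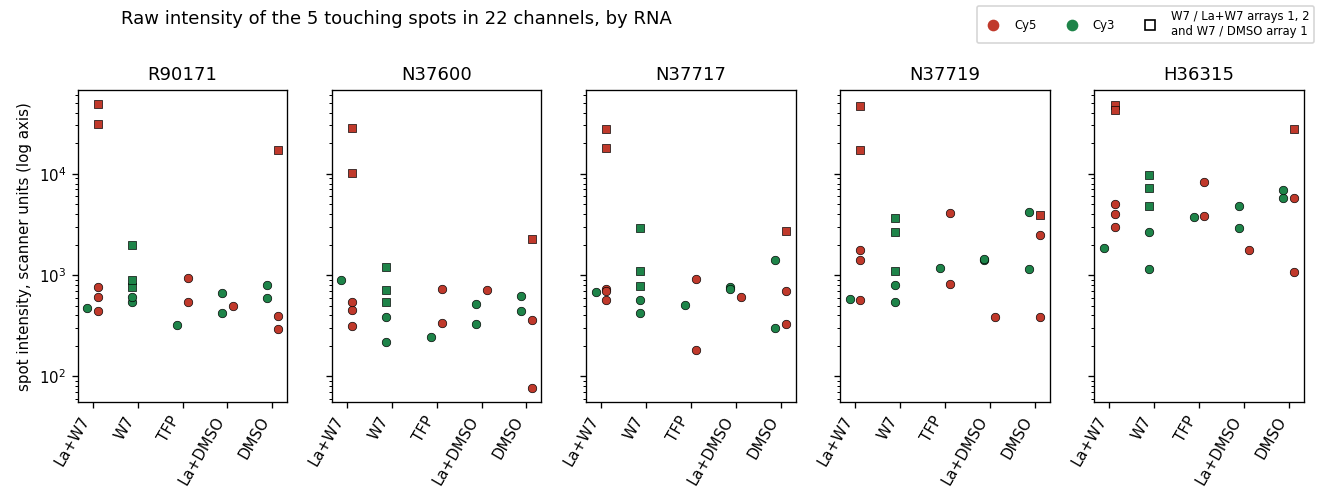
Raw spot intensity in scanner units (log axis) of the 5 touching clones in 22 channels, grouped by RNA and coloured by dye; squares mark W7 over La plus W7 arrays 1 and 2 and W7 over DMSO array 1. For R90171 the Cy5 squares stand at 48547, 31117 and 16962 units, and all other points lie between 292 and 2001.

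Some spots beside these clones, though not among the 129, were also high in Cy5 on the same 3 arrays. The rectangle of the 5 was drawn from their own values. It holds 12 EST spots, of which 6 belong to the 129 clones. The 6 others had a median log2 ratio of Cy5 over Cy3 of 1.11 (range -0.01 to 4.47), 1.89 (0.38 to 3.84) and 1.69 (0.40 to 2.93) on W7 over La plus W7 arrays 1 and 2 and W7 over DMSO array 1, with 3, 5 and 4 of the 6 above 1. Over all 12, the median was 3.07, 2.82 and 1.56 on the 3 arrays, against -0.05, 0.32 and 0.15 over the other 366 spots of the block. Of the 12 spots, 8, 11 and 9 had a ratio above 1. On W7 over La plus W7 array 3 the median of the 12 was 0.28, against 0.22 in the rest of the block, and on the 7 other arrays it lay between -0.26 and 0.29. The whole block held 16 of the 129 clones, 5.28% of its 303 bright clones, against 1.32% of all bright clones. Slide position and La plus W7 cannot be told apart for these spots on arrays 1 and 2.

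**Figure D3:**
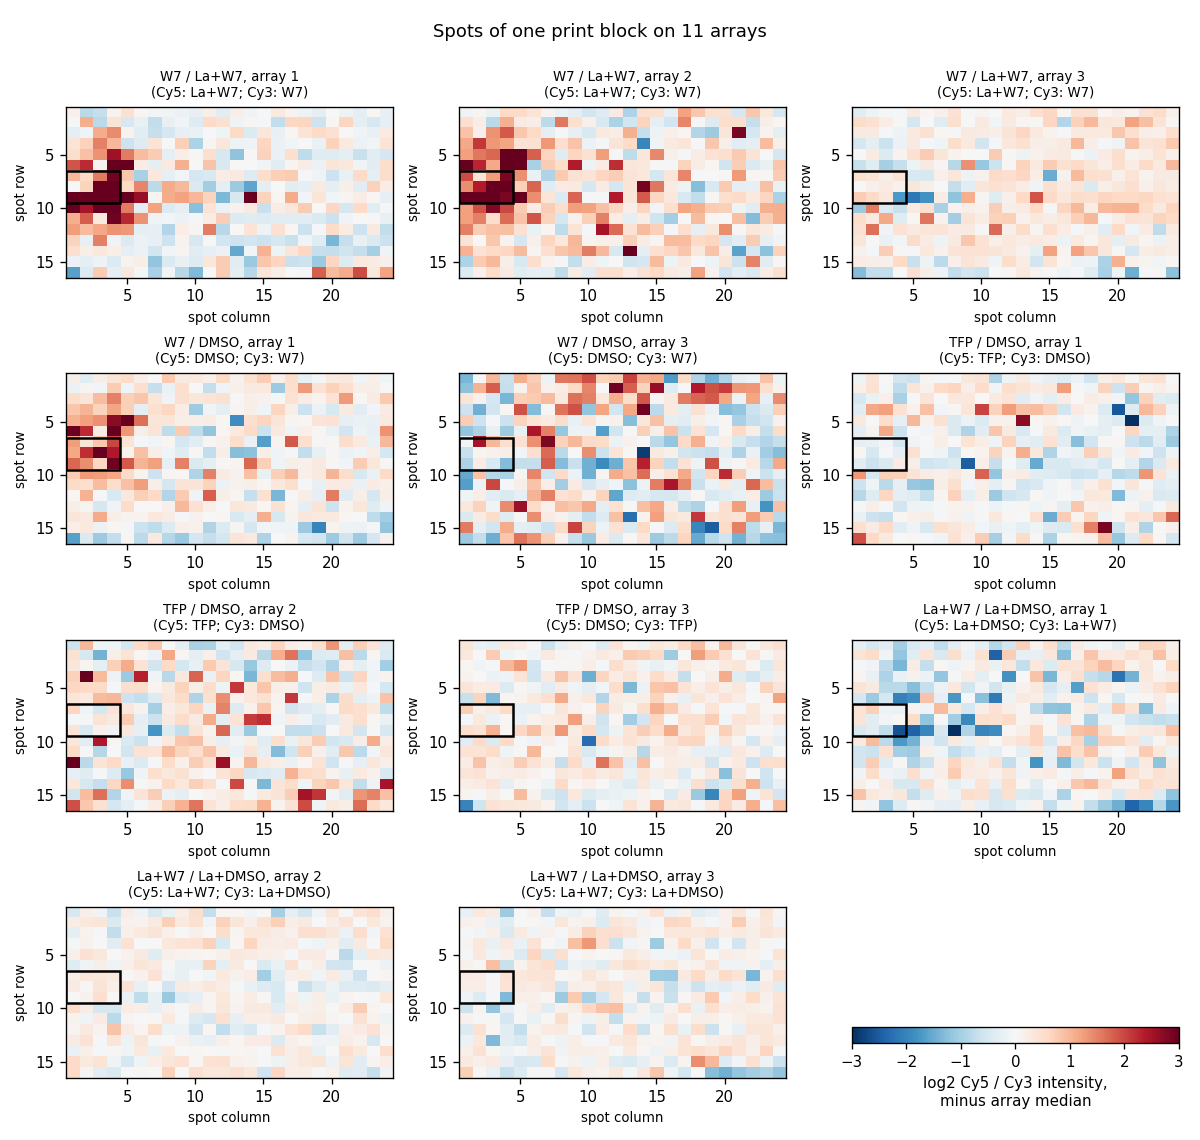
Each panel is the print block that holds the 5 touching clones on 1 of 11 arrays, with spot columns across and spot rows down and colour for the log2 ratio of Cy5 over Cy3 minus the array's median; the box marks the 12 spots of the rectangle. A red area around the box is present on W7 over La plus W7 arrays 1 and 2 and W7 over DMSO array 1, where the median in the box was 3.07, 2.82 and 1.56.

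Slide position was uneven over the whole set. Of the 129, 25 (19.4%) touched another of the set on the slide, against 7.61% of all bright clones that touched one of the set. Without the 5 touching clones the count was 20 of 124 (16.1%), and outside their block it was 18 of 113 (15.9%). The share of bright clones was not recomputed for these 2 subsets, and 7.61% still counts contact with any of the 129. Array column 4 held 13 of them (0.555% of its bright clones), while columns 1, 2 and 3 held 37, 39 and 40 (1.5% to 1.6%). EST names starting with N made up 52 of the 129 (40.3%), against 24.9% of the bright clones. The part of slide position in the choice of the clones was not tested.

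The rule was applied again to ratios computed from the scanner intensities. W7 over DMSO array 2 has no scanner values of its own, so its deposited ratio was kept in the W7 mean. Loess over the whole array then chose 159 clones, among them 126 of the 129 and all 5 touching clones. Print-tip loess, which fits each block on its own, chose 147, among them 81 of the 129. It kept 3 of the 16 clones of the block with the touching spots, 2 of them touching clones, and 78 of the 113 others. Centring each array on its median chose 149 and kept 99 of the 129. Leaving array 2 out of the W7 mean altered the set as well: the deposited ratios then chose 134 clones with 107 of the 129, loess 169 with 104, median centring 153 with 89 and print-tip loess 168 with 74. Of the 5 touching clones, 1 was kept without array 2 by the deposited ratios, by loess and by median centring, and 0 by print-tip loess. The ratios of the 113 clones outside that block had medians of -0.74, -1.29 and -0.69 on the 3 arrays of W7 over La plus W7.

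The next 20 clones by mean ratio, from T76864 (-1.87) to T76883 (-1.17), lay outside the touching group. T76864 had log2 ratios of W7 over La plus W7 of -1.29, -2.64 and -1.69, and N38123 of -1.47, -2.0 and -1.18. T76398 was the steadiest of the 20 on these arrays, at -1.29, -1.64 and -1.47 (SD 0.18). Its log2 ratios of W7 over DMSO were -0.58, -1.0 and 1.26. The rule put every clone below -0.3 on all 3 arrays of W7 over La plus W7, and T76864, N38123 and T76398 lay at -1.18 or lower on each. Others rested on 1 array: N65703 had -1.03, -3.47 and -0.40, N38463 -3.32, -0.58 and -0.79, and T43667 -0.47, -2.84 and -0.56. On array 2 the 20 clones had a median of -2.18, against -1.19 and -0.73 on arrays 1 and 3.

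The set's mean change with W7 was near 0 by the rule, but the 3 W7 over DMSO arrays did not each lie near 0. The clones' median log2 ratio was -0.60, -0.25 and 0.26 on arrays 1, 2 and 3, against -0.04, -0.03 and -0.07 over the 9765 bright clones. On array 1, 117 of the 129 lay below 0 (90.7%, against 53.8% of bright clones), and on array 3, 85 lay above 0 (65.9%, against 45.8%). The 2 arrays had the same dyes, with W7 in Cy3, but came from different image folders. Array 3 lay nearer to its blank spots. At or under their 95th percentile were 23 of the 129 clones (17.8%) in Cy3 and 17 (13.2%) in Cy5. Over all bright clones these shares were higher still. On array 1 it was 1 of the 129 (0.775%) in each dye. The part of these differences in the opposite signs was not tested. In all, 77 clones (59.7%) were below 0 on array 1 and above 0 on array 3, against 21.5% of bright clones. N38123 shows it, with log2 ratios of W7 over DMSO of -0.79, 0.18 and 0.86. The rule used these arrays, so the shares are a description.

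A small W7 value on every array was rare in the set. Only 16 of the 129 clones (12.4%) lay within 0.5 of 0 on all 3 W7 over DMSO arrays, against 31.4% of all bright clones, and the range over the 3 arrays was above 1 for 69 of the 129 (53.5%), against 29.5%. Array 3, with more clones near its blank spots, enters both counts, and its part in them was not tested. The label of these clones as unmoved by W7 thus holds for the mean of the 3 arrays by the rule, and for each array in 16 clones. Among the 16, T76752, named after its values were seen, had log2 ratios of W7 over DMSO of 0.25, 0.16 and 0.18 and of W7 over La plus W7 of -1.32, -1.0 and -0.74. The 16 clones had medians of -0.66, -1.11 and -0.56 on the 3 arrays of W7 over La plus W7.

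W7 over DMSO arrays 1 and 2 carried W7 in opposite dyes, and a clone high in Cy5 on both has ratios of opposite sign. R90171 had -4.32 and 3.99 on the pair, H36315 -1.74 and 2.36, and N37600 -1.74 and 2.15. Cy5 exceeded Cy3 by over 1 on the log2 scale on both arrays in 5 of the 129 clones (3.88%), against 8 of all 9765 bright clones (0.082%). These 5 were R90171, H36315, N37600, N37717 and T75917, the last named after its values were seen. Their W7 values of opposite sign cancelled in the mean: R90171 had a mean of -0.21 with an SD of 4.16. Values that cancel pass the W7 limit of the rule, which also asked for high Cy5 on the W7 over La plus W7 arrays. The contrast with all bright clones is therefore a description shaped by the rule. Counting any excess of Cy5 over Cy3 on both arrays, the share was 20.9% of the 129 clones, against 19.1% of bright clones.

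**Figure D4:**
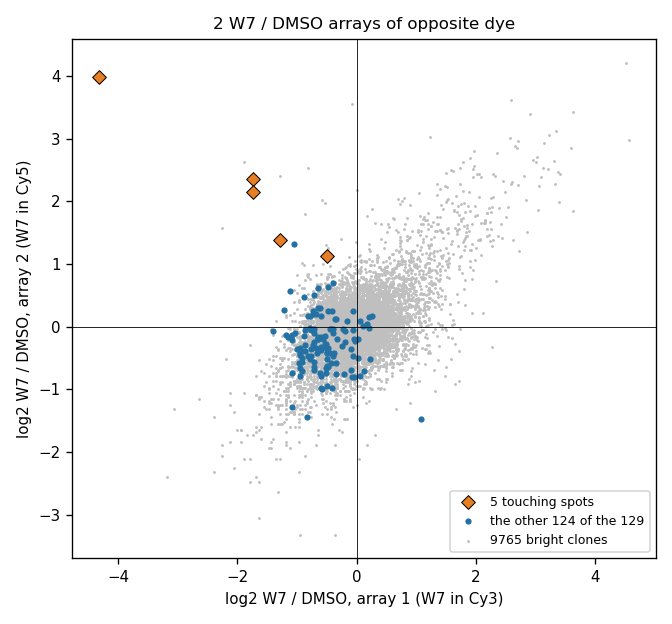
Deposited log2 ratio of W7 over DMSO on array 1 (W7 in Cy3, horizontal) and array 2 (W7 in Cy5, vertical) for the 5 touching clones (orange diamonds), the other clones of the 129 (blue) and the 9765 bright clones (grey). R90171 lies at -4.32 and 3.99, and most of the 129 lie left of 0, as 117 of them did on array 1.

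Across clones, the pair correlated at r = 0.57 over the 9765 bright clones and at -0.55 over the 129, and at -0.10 over the 113 clones outside the block of the touching spots. These are descriptions across clones that share slides and depth, and the rule limits the values they can take.

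Arrays outside the rule allow tests. The first asked how the clones stood after lanthanum without W7, from the La plus DMSO and DMSO channels of 3 arrays each. The La plus DMSO channels came from the arrays with La plus W7, and the DMSO channels from the arrays with TFP. No array held both, so lanthanum and experiment cannot be told apart in this comparison. A separate-channel limma fit was made over 11184 clones, which all 129 clones entered. None of the 129 passed a Benjamini-Hochberg adjusted p of 0.05, nor did any other clone (0% higher and 0% lower). At an unadjusted p under 0.05 there were 5 (3.88%), against 3.81% of all clones, of which 2 were higher (1.85% of all clones) and 3 lower (1.96%). The median log2 difference of La plus DMSO minus DMSO was 0.01 over the 129 clones, against 0.01 over all clones, with 68 clones above 0. It ran from -0.12 to 0.12 with 1 array left out. The 95% interval of 1 clone spanned 1.28 on either side in the median, more than a 2-fold difference.

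On the arrays outside the rule, which did not hold W7 alone, the clones as a set were among the brighter ones in every group. Their median level lay above the median of all 11184 clones by 0.90 ± 0.21 in La plus W7, 0.85 ± 0.18 in La plus DMSO, 0.88 ± 0.53 in TFP and 0.81 ± 0.15 in DMSO channels (log2, mean ± SD, n = 3). The La plus DMSO channels gave 0.94, 0.65 and 0.98, and the DMSO channels gave 0.70, 0.75 and 0.99. The groups overlap, and their means differ by less than the spread between channels. The rule asked for at least 500 scanner units and chose on La plus W7 signal. Part of the excess over all clones therefore follows from it. In 10 clones (7.75%, against 5.58% of all clones) the 3 La plus DMSO channels all lay above the 3 DMSO channels, and in 8 (6.2%, against 5.92%) all lay below.

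**Figure D5:**
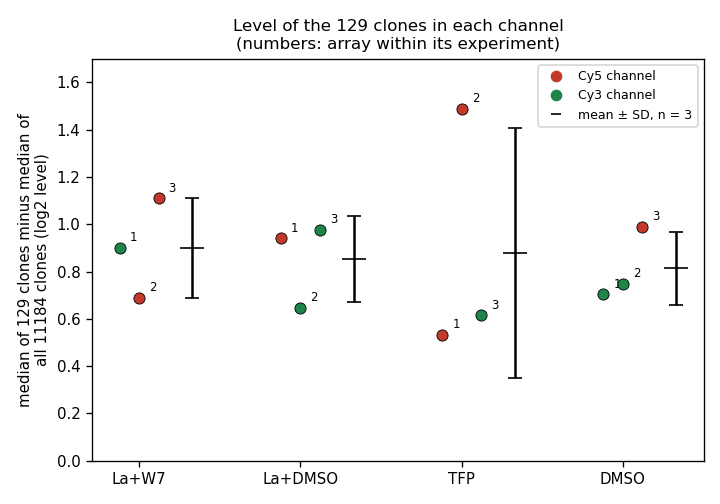
Median log2 level of the 129 clones minus that of all 11184 clones, by channel (points, coloured by dye and numbered by array) and as mean ± SD (n = 3 channels) for La plus W7, La plus DMSO, TFP and DMSO RNA on the 6 arrays outside the rule. The La plus DMSO channels lie between 0.65 and 0.98 and the DMSO channels between 0.70 and 0.99, while TFP array 2 stands at 1.49.

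Single clones spread widely between channels. T76864 had levels of 3.02, 3.16 and 4.02 in La plus DMSO channels, against 3.91, 3.49 and 3.24 in DMSO channels (log2, relative to the median clone), a fitted difference of -0.13 (SE 0.67). The 2 groups overlap. T76398 had 2.19, -1.06 and -0.57 in La plus DMSO, against -1.32, -1.81 and -0.16 in DMSO, with a fitted difference of 1.30 (SE 0.79, adjusted p = 1 in the limma fit) and the value of 2.19 standing apart in its group. R90171 had a fitted difference of -0.22 (SE 0.52). Beyond 1 in size on the log2 scale lay 18 of the 129 clones (13.95%, against 8.64% of all clones), and these reached from -2.74 to 2.11. Both ends had 1 array standing apart. N96517 (-2.74) had La plus DMSO levels of 1.42, -4.01 and 2.18. On array 2 it had 40 units in Cy5 and 98 in Cy3, under the 95th percentile of the blanks (180 and 335). AA067479 (2.11), named after its values were seen, had DMSO levels of 3.37, 2.87 and -1.95.

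The deposited ratios also close a loop that leads from La plus DMSO to DMSO: the W7 over DMSO ratio minus the ratios of W7 over La plus W7 and of La plus W7 over La plus DMSO. For the 129 clones this gave a median of 0.77, with all 129 above 0 (0.01 to 3.37), against a median of -0.02 over bright clones. The values of the rule enter this sum, so its sign is a description. The channels outside the rule gave 0.01 for La plus DMSO minus DMSO, from RNAs on different slides. The gap between the medians is likewise a description, since the rule fixed part of the loop value. The 95% interval of the channel difference held the loop value in 100 of the 129 clones. It lay wholly below the loop value in 29 and wholly above it in 0. N38123 and T76864 are among the 29. For N38123 the loop gave 1.58 and the channels 0.21, and for T76864 they gave 1.74 and -0.13. The rule fixed part of the loop value, so these counts are a description too.

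The second test asked whether W7 moved the clones in seedlings that had received lanthanum. In the limma fit of La plus W7 over La plus DMSO, 0 of the 129 were called, as were 0% of all clones in either direction. At an unadjusted p under 0.05 there were 3 clones (2.33%), against 3.38% of all, of which 2 were higher (2.58% of all clones) and 1 lower (0.805%). The clones' median log2 ratio was 0.00 (-0.176 and 0.054 without arrays 1 and 2), 65 of them lay above 0, and the fitted values ran from -0.53 to 0.68. The 95% interval of 1 clone spanned 0.53 on either side in the median. Per array the deposited medians were -0.04, -0.01 and 0.10, and the clones were above 0 on all 3 arrays in 19 cases (14.7%, against 11.5% of all clones) and below 0 in 12 (9.3%, against 11.4%). Across the 9765 bright clones, the deposited ratios of these 3 arrays correlated with each other at r = -0.17, -0.07 and 0.15. Among the 3 TFP over DMSO arrays r was 0.22 to 0.45. The lack of calls therefore does not show that W7 left the clones unchanged after lanthanum.

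R90171 had deposited log2 ratios of La plus W7 over La plus DMSO of -0.58, 0.45 and 0.20, and a fitted value of -0.02 (SE 0.21). T76864 had 0.31, 0.08 and -0.06, and a fitted value of 0.04 (SE 0.30). Both clones straddle 0. The partner RNA here was La plus DMSO and not W7, so these values do not measure the ratio that chose the clones. T76752 had -0.07, 0.58 and 0.47, with a fitted value of 0.25 (SE 0.18).

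The next test concerned TFP. In the fit of TFP over DMSO 0 of the 129 clones were called, while 2.67% of all 11184 clones were called higher and 0.259% lower. At an unadjusted p under 0.05 there were 7 higher (9.32% of all clones) and 5 lower (5.32% of all clones), in all 9.3% of the 129, against 14.6% of all clones. Across bright clones, TFP over DMSO and W7 over DMSO arrays correlated at r = 0.20 to 0.71. The rule kept clones with a small mean W7 ratio, so the TFP shares are not free of the rule. Its part in them was not tested. The median log2 ratio of TFP over DMSO was 0.07, against -0.00 over all clones, and the fitted values ran from -0.81 to 0.84. The lowest adjusted p was 0.0622 in the limma fit, for R64899 (0.84, SE 0.20), a clone named after its values were seen. It was higher in the TFP channel on 3 of 3 arrays, with levels of 0.72, 1.00 and -0.06 in TFP, against 0.10, -0.07 and -0.76 in DMSO.

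That median near 0 joins arrays that differed. The deposited log2 ratios of TFP over DMSO had medians of -0.23, 0.60 and -0.27 on arrays 1, 2 and 3, with 107 of the 129 clones (82.9%) above 0 on array 2 and 92 and 94 below 0 on arrays 1 and 3. Over bright clones the medians were -0.03, 0.00 and -0.04. Without array 2 the fitted median was -0.20, and 2 clones, N65788 and N97174, were then called (1.55%, against 2.62% of all clones), the first of them named after its values were seen. Without arrays 1 and 3 it was 0.20 and 0.23. The clones were above 0 on all 3 arrays in 15 cases (11.6%, against 18.3% of all clones) and below 0 in 17 (13.2%, against 14.9%). The 20 clones T76864 to T76883 showed it more strongly, with a median of 1.07 on array 2 and 17 above 0, against -0.14 and -0.39 on arrays 1 and 3. T43667 had 0.35, 2.12 and -0.34. Across all 9765 bright clones, TFP over DMSO array 2 correlated at r = -0.48 with W7 over La plus W7 array 2, the array that held the lowest value for most of the 129, and at 0.10 and 0.11 with arrays 1 and 3 of that experiment. Arrays 1 and 2 of TFP shared dyes and an image folder, and the source of the difference between them was not tested.

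The last comparison asked whether the clones lean towards a dye, since La plus W7 was always in Cy5 on the arrays of the rule. Among the 6 other arrays, all those with the first-named RNA in Cy5 shared an image folder. Those with it in Cy3 came from other folders, so dye order and image folder cannot be told apart. The dye term of the fit to these 6 arrays, modelled as the log2 ratio of Cy5 over Cy3 at equal RNA, was called for 0 of the 129 clones and for 0% of all. It was above 0 in 95 of the 129 (73.6%), against 50.4% of all clones, with a median of 0.13 against 0.00. At an unadjusted p under 0.05 it was higher in 10 (7.75%, against 2.89% of all clones) and lower in 2 (1.55%, against 6.01%), in all 9.3% against 8.9%. Its median fell to 0.02 without TFP over DMSO array 2 and to 0.02 without TFP over DMSO array 3, and was 0.21 without TFP over DMSO array 1 and 0.23 without La plus W7 over La plus DMSO array 1. The median ratio that chose the clones was -0.90, and the part of dye in it was not tested.

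The brightness ranks of the clones describe the same channels. On the rule's own arrays the clones were chosen for high La plus W7 and low W7 signal, so their ranks there follow from the rule. In La plus W7 channels their median percentile among EST spots was 77.3, 82.9 and 70.5 on the 3 arrays of the rule, against 56.6, 58.1 and 56.9 in the W7 channels of the same arrays. On the arrays outside the rule it was 69.8, 66.6 and 73.5 in La plus W7, 70.2, 65.4 and 71.3 in La plus DMSO, 63.9, 78.0 and 64.6 in TFP, and 66.2, 67.6 and 71.2 in DMSO. The bright clones had a median percentile between 58.5 and 59.0 in each channel. In the W7 channels of W7 over DMSO arrays 1 and 3, also used by the rule, the 129 clones had 57.1 and 70.3.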

How the data were processed

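Two-colour cDNA arrays of Arabidopsis seedlings were used. Per the file headers, the deposited scanner files hold raw spot intensity and local background for both dyes. The authors also deposited 1 linear ratio per spot and array, test over control RNA, whose column medians lay between 0.95 and 1.01. How it was normalized is not stated in what was used here. The deposited ratio was used as log2 to choose the clones. The clones, the rule and the comparisons were chosen with earlier results of these data known.

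From the intensities, log2 ratios were computed with normexp (offset 50) and loess within each array in limma 3.58.1 under R 4.3.3, with blank spots at weight 0. The 3 TFP over DMSO and 3 La plus W7 over La plus DMSO arrays were fitted together (lmFit, eBayes), each experiment having its own coefficient beside a dye term. It had 3 residual and 6.73 prior degrees of freedom. The 6 arrays of the rule were kept out, so that the choice of clones did not enter the spread. La plus DMSO was compared with DMSO in a separate-channel fit (Aquantile, intraspot correlation 0.852) of the same arrays. Clones above the 95th percentile of the blanks in either channel on at least 2 arrays of each experiment were tested, and p-values were Benjamini-Hochberg adjusted over all 11184. Named clones were the 25 with the lowest mean ratio, those called, and 3 on either side of the limit. Others are marked where named. The fit was tested on simulated data. The planned list of calcium genes was not applied, since clone names matched no gene.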

Additional observations from a re-analysis of the deposited data

How the results depend on the processing

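With the 6 arrays outside the rule, 0 of the 129 clones were called for La plus W7 over La plus DMSO in 18 alternatives, for La plus DMSO minus DMSO in 15 and for the dye term in 15. For TFP over DMSO, 14 of 18 alternatives called 0. The exceptions were 1 clone with no dye term (0.78%, against 3.61% of all clones), 1 with print-tip loess (0.78%, against 3.0%; both R64899), 4 on the only image folder that holds both experiments, with no dye term (N38112, N65311, N65318 and T42261; 3.1%, against 4.69%, an alternative chosen after seeing the data), and 0 to 2 when 1 array was left out (at most 1.55%, against 2.62%). Clones named here only were chosen after their values were seen. The median for La plus W7 over La plus DMSO was -0.11 with the image folder as a block and the dye term dropped, 0.052 on that single folder, and -0.176 to 0.054 with 1 array left out. The cause was not tested. The median for TFP over DMSO ran from -0.20 to 0.27, for La plus DMSO minus DMSO from -0.12 to 0.12, and for the dye term from 0.01 to 0.23. Leaving out 1 array in the rule gave 88 to 291 clones: 268 without W7 over La plus W7 array 1, 291 without array 3 and 105 without array 2. An intensity minimum of 1000 gave 108 and none gave 153. The rule on print-tip or median-centred ratios, and each scanner setting with the deposited W7 array 2, was added after seeing the data. Replicate numbers did not pair the 2 experiments (r = -0.13, -0.04 and -0.04 for same-numbered arrays). A replicate block called 0 of the 129 clones in each comparison, with medians of 0.11 for TFP, 0.04 for La plus W7, 0.01 for La plus DMSO and 0.01 for the dye term. With 3 arrays a group, the intervals of single clones limit what could be detected.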
